A study of Mus musculus with 63 samples.

Results

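The Serpina3 cluster is a run of serine protease inhibitor (serpin) genes on mouse chromosome 12, and 8 of its genes are described here: Serpina3n, Serpina3m, Serpina3f, Serpina3h, Serpina3i, Serpina3c, Serpina3g and Serpina3k. They were chosen by symbol, as 8 of the 55401 genes in the deposited count table, with the strain difference of the cluster already known, so their strain values are a description and were not tested. The tissue was the dorsal hippocampus of adolescent mice of 2 inbred strains, DBA/2J (32 libraries) and C57BL/6J (31 libraries). Within each strain, males and females were given ethanol (1.5 g/kg) or saline and either went through fear conditioning (FC) or did not (noFC), so that 16 groups resulted. Each group held 4 libraries, except fear-conditioned C57BL/6J males given saline, with 3. The labels name no engineered allele, so a strain difference below is one between whole inbred lines. Tissue was kept in RNAlater, RNA was taken up with Trizol and RNeasy columns, and stranded libraries of polyadenylated RNA were read as single reads.

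Serpins are suicide inhibitors: a protease cuts an exposed stretch near the carboxyl end, the reactive centre loop, and the serpin then folds around it and traps it for good. The sequence of that loop decides which proteases are caught. Humans have a single SERPINA3 gene, which encodes alpha-1-antichymotrypsin, whereas in rodents the gene has multiplied into a cluster whose copies differ most in the loop. Serpina3n is the member best known in brain, where it is secreted, belongs to the acute-phase genes induced by cytokines and glucocorticoids, and is a standard marker of reactive astrocytes. It inhibits granzyme B and leukocyte elastase. Serpina3g acts inside cells against cathepsins and is known from lymphoid cells, and Serpina3k is an abundant plasma inhibitor made by the liver. Serpina3h is annotated as a transcribed pseudogene.

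The loop is shown first because it is where the copies part, and because the stretch printed, 75 coding bases, is as long as the sequencing reads. Each run starts at the conserved hinge of the loop and reads 5′ to 3′ on the coding strand. Capitals mark bases unlike Serpina3n at the same position, counted without gaps.
Serpina3n: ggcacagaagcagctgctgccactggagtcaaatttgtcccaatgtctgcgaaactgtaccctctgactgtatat
Serpina3m: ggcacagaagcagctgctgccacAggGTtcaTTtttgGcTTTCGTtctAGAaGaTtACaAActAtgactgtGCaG
Serpina3f: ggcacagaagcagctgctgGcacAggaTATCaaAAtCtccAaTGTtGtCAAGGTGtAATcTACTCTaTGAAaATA
Serpina3i: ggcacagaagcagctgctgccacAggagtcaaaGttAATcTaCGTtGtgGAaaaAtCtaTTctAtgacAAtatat
Serpina3c: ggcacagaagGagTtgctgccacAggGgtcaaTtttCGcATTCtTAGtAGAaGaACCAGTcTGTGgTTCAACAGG
Serpina3g: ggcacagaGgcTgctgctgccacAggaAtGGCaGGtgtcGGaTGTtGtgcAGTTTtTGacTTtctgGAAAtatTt
Serpina3k: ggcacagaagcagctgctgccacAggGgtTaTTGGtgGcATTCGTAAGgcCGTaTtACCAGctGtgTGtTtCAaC
The sequences are from the transcripts of GENCODE M21 on GRCm38. Those on the plus strand lie at chr12:104413448-104413522 (Serpina3n), chr12:104393769-104393843 (Serpina3m), chr12:104220245-104220319 (Serpina3f), chr12:104268480-104268554 (Serpina3i), chr12:104241072-104241146 (Serpina3g) and chr12:104345269-104345343 (Serpina3k). Serpina3c lies on the minus strand, at chr12:104147313-104147387. Serpina3i differed from Serpina3n at 19 of the 75 bases, Serpina3m at 25, Serpina3g at 29, Serpina3k at 33, and Serpina3c and Serpina3f at 37 each.

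Over their whole coding sequences the copies are closer. Serpina3k and Serpina3m were identical at 92.6% of aligned bases, Serpina3f and Serpina3i at 92.1%, Serpina3c and Serpina3m at 90.3%, and Serpina3m and Serpina3n at 85.2%. A read can therefore fall where it fits more than one gene. Of all runs of 75 bases in a gene's transcripts, 1.46% in Serpina3n also occurred in another gene of the annotation (Serpina3e-ps or Serpina3g). The share was 9.65% in Serpina3m (Serpina3k or Serpina3c), 11% in Serpina3h, 7.69% in Serpina3g, 7.36% in Serpina3k, 6.62% in Serpina3i, 5.33% in Serpina3f and 0.327% in Serpina3c. These shares are for the C57BL/6J reference. Whether DBA/2J variants moved reads between copies, or out of them, was not tested, and the values of the members are uncertain in that respect.

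Libraries held between 21027659 and 61631742 counts on genes (median 26379948). Defining markers of hippocampal neurons, astrocytes, oligodendrocytes, microglia and endothelium were above 0 in every library, 8 of 8, 7 of 7, 8 of 8, 6 of 6 and 6 of 6. The summed level of 8 choroid plexus markers ran from 34.2 to 10949 CPM (counts scaled to library size) in DBA/2J libraries and from 44.3 to 12287 CPM in C57BL/6J libraries. As these are bulk samples, fewer cells of a type and less RNA per cell cannot be told apart. No pair of libraries held identical counts. The labels do not say that each library is a separate animal, so the p-values below measure the spread between these samples.

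Serpina3n was the one abundant gene of the cluster, and it was higher in DBA/2J. Serpina3n (ENSMUSG00000021091, GRCm38 chr12:104406729-104414329, plus strand) stood at 73.6 CPM in the lowest, 103 in the median and 124 in the highest DBA/2J library, against 38.6, 59.7 and 76.8 CPM in C57BL/6J libraries. The strains hardly overlapped: 31 of 32 DBA/2J libraries lay above the highest C57BL/6J library, and the exception was DBA_F_noFC_SAL_313, a saline female without conditioning, at 73.6 CPM. The means were 102 ± 11.4 CPM in DBA/2J (SD, n = 32) and 59.2 ± 8.17 CPM in C57BL/6J (SD, n = 31), a log2 difference of 0.79 (SE 0.04), or 1.72-fold for the means. The sample titles carry 2 rounds of numbers, whose meaning the labels do not give, and the difference was 0.79 in the first round and 0.78 in the second. Libraries of 1 strain differed from each other by more than counting allows: the coefficient of variation was 11.2% in DBA/2J and 13.8% in C57BL/6J, where counting alone gives 1.92% and 2.52%.

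Serpina3m was nearly absent from C57BL/6J libraries. Serpina3m (ENSMUSG00000079012, chr12:104338486-104394257, plus strand) had 3.01, 4.18 and 5.18 CPM in the lowest, median and highest DBA/2J library, against 0, 0 and 0.12 CPM in C57BL/6J libraries. In counts that was 3744 over the DBA/2J libraries, between 75 and 185 in each, and 13 over the C57BL/6J libraries, of which 21 had none. No library of either strain came near the other strain. Mean levels were 4.21 ± 0.67 CPM in DBA/2J and 0.016 ± 0.0274 CPM in C57BL/6J, a log2 difference of 8.11 (SE 0.16). Within rounds the log2 difference was 8.91 in the first and 8.02 in the second, where the fit rests on the few C57BL/6J counts. The SE, made from the F value of the test, understates the error of a difference with only 13 counts in C57BL/6J.

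Serpina3f and Serpina3h also separated the strains completely, at lower levels. Serpina3f (ENSMUSG00000066363, chr12:104214544-104221129) had 0.966, 1.38 and 1.77 CPM in the lowest, median and highest DBA/2J library and 0, 0.0366 and 0.124 CPM in C57BL/6J libraries, with 1224 counts in DBA/2J against 37 in C57BL/6J. Serpina3h (ENSMUSG00000041449, chr12:104247905-104253669) had 0.458, 0.825 and 1.46 CPM in DBA/2J and 0, 0.116 and 0.251 CPM in C57BL/6J, with 786 against 98 counts. For both genes every DBA/2J library lay above every C57BL/6J library. The log2 differences were 5.26 (SE 0.17) for Serpina3f and 2.93 (SE 0.16) for Serpina3h. For Serpina3f, with 37 counts in C57BL/6J, the SE again understates the error. Serpina3f varied little among DBA/2J libraries, with a coefficient of variation of 15.9% where counting alone gives 16.7%.

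In Serpina3i, Serpina3c and Serpina3g the strains overlapped. Serpina3i (ENSMUSG00000079014, chr12:104263122-104269372) averaged 0.233 ± 0.138 CPM in DBA/2J and 0.0608 ± 0.0455 CPM in C57BL/6J, from 207 and 53 counts, a log2 difference of 1.92 (SE 0.24). Serpina3c (ENSMUSG00000066361, chr12:104146382-104153870, minus strand) averaged 0.411 ± 0.141 CPM in DBA/2J and 0.178 ± 0.0828 CPM in C57BL/6J, a log2 difference of 1.19 (SE 0.15). The highest C57BL/6J library was passed by 20 DBA/2J libraries in Serpina3i and by 24 in Serpina3c. Serpina3g (ENSMUSG00000041481, chr12:104236245-104241939), the intracellular cathepsin inhibitor, was the least different, at 0.35 ± 0.172 CPM in DBA/2J and 0.255 ± 0.227 CPM in C57BL/6J, and no DBA/2J library passed the highest C57BL/6J library. Its log2 difference was 0.57 (SE 0.22), and 0.74 without that library, B6_F_noFC_EtOH_315. Serpina3k (ENSMUSG00000058207, chr12:104338486-104346144), the plasma inhibitor, had 17 counts in 9 of 32 DBA/2J libraries and 0 in C57BL/6J, at least 5.60-fold higher in DBA/2J against a floor of 3 counts over the 31 C57BL/6J libraries.

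All 7 members that passed the filter on low counts were thus higher in DBA/2J. Of 19974 genes tested, 25.5% were called higher in DBA/2J, and in 1.96% every DBA/2J library lay above every C57BL/6J library, as 3 of the 7 members did. Counting either direction, the strains did not overlap in 4.02% of tested genes. The members were chosen with that contrast known, so nothing is read from these shares.

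**Figure D1:**
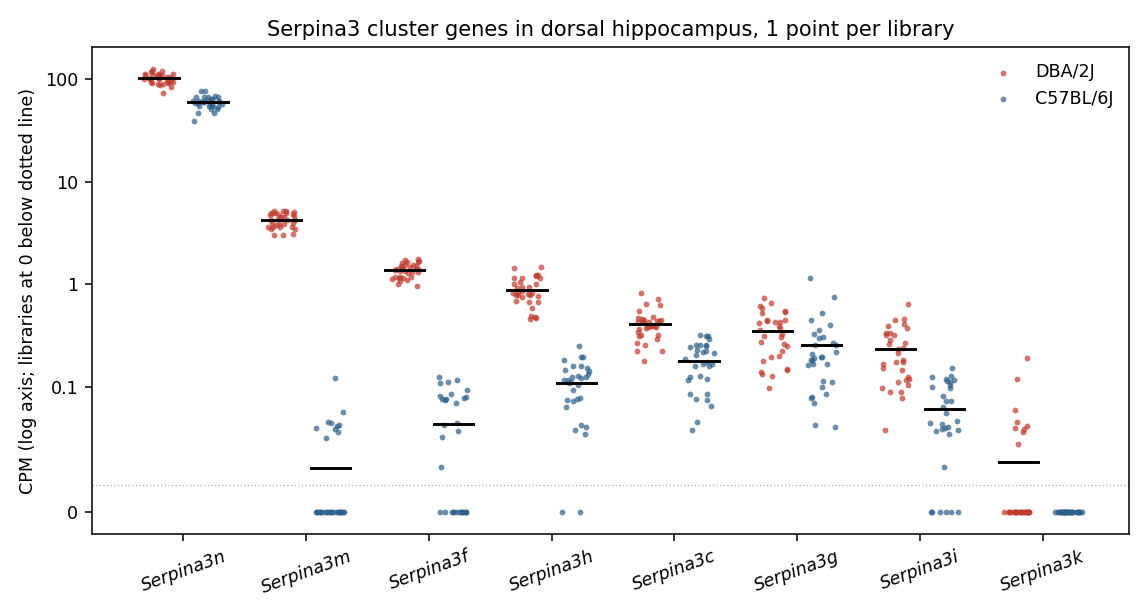
CPM of the 8 genes in each library (log axis, libraries at 0 drawn below the dotted line), DBA/2J in red and C57BL/6J in blue, with black bars for the means. Serpina3n stands near 102 CPM in DBA/2J and 59.2 CPM in C57BL/6J, and Serpina3m, Serpina3f and Serpina3h show no overlap between strains.

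Per kilobase of exon, the order of the members also differed between the strains. In DBA/2J, Serpina3n led at 49.4 ± 5.52 RPKM (CPM per kilobase of exon), followed by Serpina3m at 2.45 ± 0.39, Serpina3h at 0.615 ± 0.186 and Serpina3f at 0.596 ± 0.0948. Serpina3c, Serpina3g and Serpina3i followed at 0.186 ± 0.0639, 0.166 ± 0.0816 and 0.105 ± 0.0623 RPKM, and Serpina3k stood at 0.00902 RPKM. Neighbours in this list from Serpina3h down to Serpina3i lay within 1 SD of each other, apart from the step between Serpina3f and Serpina3c. In C57BL/6J, Serpina3n led at 28.7 ± 3.96 RPKM and the next were Serpina3g at 0.121 ± 0.108, Serpina3c at 0.0806 ± 0.0374 and Serpina3h at 0.0759 ± 0.0406 RPKM, which lay within 1 SD of each other. Serpina3m, second in DBA/2J, stood at 0.00929 RPKM in C57BL/6J, below Serpina3i at 0.0273 and Serpina3f at 0.0189 RPKM.

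Outside the 8 genes, the same stretch of chromosome held 20 further annotated Serpina genes and pseudogenes, and 2 of them passed the filter. Both were higher in DBA/2J, in a comparison (edgeR's quasi-likelihood test with Benjamini-Hochberg adjustment) that called 50% of all genes. Each passed the filter only through DBA/2J libraries, which fixed its direction beforehand, so the values are a description and no p is given. Serpina1b, one of the alpha-1-antitrypsin genes that the liver makes, stood at 1.78 ± 0.64 CPM in DBA/2J and 0.00693 ± 0.0145 CPM in C57BL/6J (1598 and 6 counts). Its log2 difference was 7.48 (SE 0.25), and that SE understates the error with 6 counts in C57BL/6J. The pseudogene Serpina3e-ps, next to Serpina3f, stood at 1.31 ± 0.64 and 0.0479 ± 0.0531 CPM, a log2 difference of 4.83 (SE 0.25). Below the filter, Serpina3l-ps had 173 counts in DBA/2J and 2 in C57BL/6J, Serpina1d 85 and 0, Serpina1e 71 and 4, Serpina1c 39 and 1, and Serpina1a 22 and 0. Others were the reverse or level, such as Serpina12 with 19 counts in DBA/2J and 40 in C57BL/6J and Serpina9 with 57 and 40. In all, 21 of the 28 Serpina genes had more counts in DBA/2J, which includes all 8 members, chosen with that difference known. Some of the others rest on a few counts, such as Serpina3j with 3 and 0. The share over all genes was not worked out, so nothing is read from this number.

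Genes flanking the Serpina genes differed far less. Of the 5 nearest tested protein-coding genes on each side, 1 was called, Tunar, which was lower in DBA/2J at 21.3 ± 2.52 CPM than in C57BL/6J at 23.8 ± 2.15 CPM (log2 difference -0.16, SE 0.04, adjusted p = 0.00015, edgeR). The log2 differences of all 10 lay between -0.16 and 0.12. Ppp4r4, on the side of Serpina1b, stood at 59.5 ± 7.13 CPM in DBA/2J and 60.1 ± 5.77 CPM in C57BL/6J, and Dicer1, which cuts microRNA precursors and lies 281 kb past the start of Serpina3n, at 84.7 ± 4.35 and 85.9 ± 4.43 CPM.

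**Figure D2:**
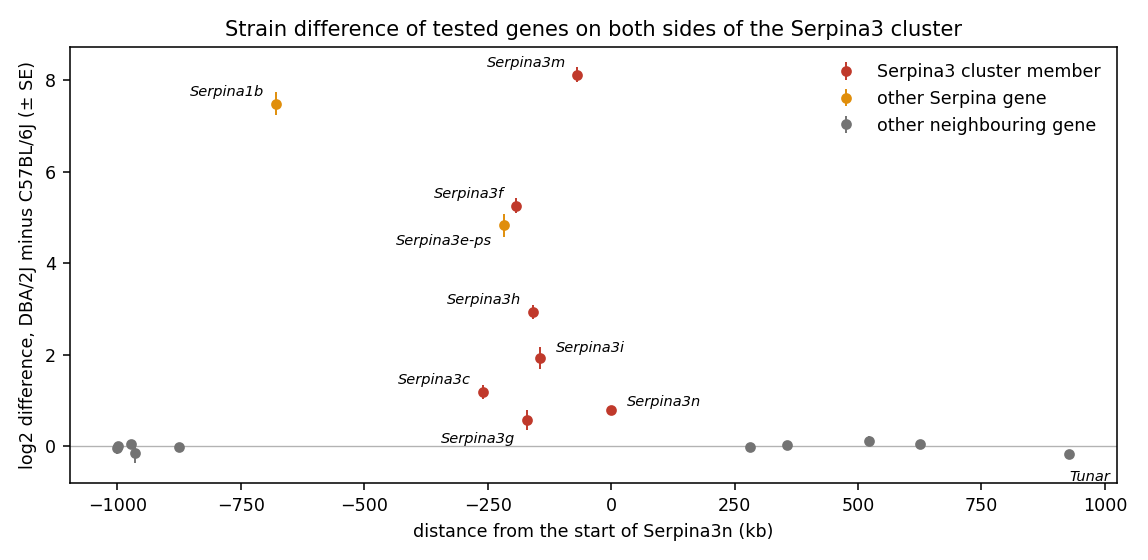
Log2 difference of DBA/2J minus C57BL/6J (y axis, bars ± SE) against distance from the start of Serpina3n in kb (x axis), for cluster members in red, other Serpina genes in orange and neighbouring genes in grey. Members lie between 0.57 and 8.11, and the 10 neighbours between -0.16 and 0.12. The bars understate the error for genes with few C57BL/6J counts, such as Serpina3m, Serpina3f and Serpina1b.

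The deposited table of transcript estimates, made with another program, gave the same direction for the 6 members that could be compared, but other sizes. For Serpina3n the estimate averaged 2927 in DBA/2J and 1697 in C57BL/6J, against gene counts of 2827 and 1690. For Serpina3m it averaged 144 and 0.335, against 117 and 0.419 counts. All of it lay on Serpina3m-201, whose annotated start is also that of Serpina3k, and none on Serpina3m-202, which starts at base 104387164, or on Serpina3k. Serpina3f had an estimate of 14.1 in DBA/2J against a count of 38.25, and Serpina3i one of 13.6 against a count of 6.47. On this table the log2 strain difference was 3.85 for Serpina3f, 2.56 for Serpina3i and 0.67 for Serpina3c. Serpina3g could not be set beside its count, since the protein-coding Serpina3g-201 was not used here and the other 3 transcripts held estimates of 0.75 in DBA/2J and 1.44 in C57BL/6J. How the 2 programs shared reads between copies was not tested.

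No member passed the test for ethanol in either strain. In DBA/2J, Serpina3n had 83.5, 99.3 and 124 CPM in the lowest, median and highest of 16 ethanol libraries, against 73.6, 104 and 121 CPM in 16 saline libraries. Serpina3m had 3.01, 4.06 and 5.15 CPM with ethanol, against 3.05, 4.32 and 5.18 CPM with saline. Both pairs of groups overlapped over nearly their whole range. The log2 difference of Serpina3n was -0.01 (SE 0.06, adjusted p = 1.0, edgeR), with a 95% interval from -8.49% to 8.2%, and that of Serpina3m was -0.05 (SE 0.11, adjusted p = 0.97), from -16.8% to 12.7%. Serpina3f gave 0.00 (SE 0.14), and the less abundant Serpina3h, Serpina3c, Serpina3g and Serpina3i gave 0.20 (SE 0.16), 0.27 (SE 0.19), 0.10 (SE 0.29) and -0.13 (SE 0.27). None of the 7 members was called and none had an unadjusted p under 0.05, while 0.295% of all genes were called in that comparison.

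In C57BL/6J, Serpina3n had 38.6, 59.0 and 75.9 CPM in the lowest, median and highest of 16 ethanol libraries, against 50.9, 59.7 and 76.8 CPM in 15 saline libraries. The ranges overlapped, with 4 ethanol libraries below all saline ones. The log2 difference was -0.08 (SE 0.06, adjusted p = 1.0, edgeR), an interval from -13.2% to 3.29%. Of the 7 members 0 were called, where 0.0901% of all genes were, and 2 had an unadjusted p under 0.05, as did 842 of the 19974 genes. Serpina3f had 13 counts over the ethanol libraries against 24 over the saline ones, a log2 difference of -1.49 (SE 0.46, adjusted p = 0.73, edgeR). Serpina3i had 18 against 35, a log2 difference of -1.15 (SE 0.42, adjusted p = 0.93, edgeR). Both rest on a few reads per library, and the noFC females given ethanol held no Serpina3f count. The ethanol effects of the strains, compared directly, differed by 0.07 for Serpina3n (SE 0.09, adjusted p = 1.0), and no member was called in that comparison, which called 0.01% of all genes. The same difference was 1.49 for Serpina3f (SE 0.47) and 1.02 for Serpina3i (SE 0.49), both at adjusted p = 1.0 by edgeR. Over both strains together, ethanol called 0 of 7 members and 0.546% of all genes, and Serpina3n differed by -0.04 (SE 0.04, adjusted p = 0.90). Serpina3f differed by -0.75 (SE 0.24, adjusted p = 0.23, edgeR) and Serpina3i by -0.64 (SE 0.25, adjusted p = 0.38, edgeR).

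No member passed the test for fear conditioning in either strain. In DBA/2J, Serpina3n had 83.5, 102 and 121 CPM in the lowest, median and highest FC library, against 73.6, 104 and 124 CPM in noFC libraries (16 each). In C57BL/6J it had 38.6, 59.4 and 76.8 CPM in 15 FC libraries, against 47.1, 62.0 and 75.9 CPM in 16 noFC libraries. The groups overlapped in both strains. The log2 difference was -0.02 in DBA/2J (SE 0.06, adjusted p = 1.0, edgeR), an interval from -9.12% to 7.46%, and -0.08 in C57BL/6J (SE 0.06, adjusted p = 1.0), an interval from -13.3% to 3.17%. Serpina3m in DBA/2J had 3.01, 4.07 and 5.18 CPM in FC libraries against 3.05, 4.25 and 5.15 CPM in noFC libraries, a log2 difference of -0.06 (SE 0.11). The widest difference among members in DBA/2J was that of Serpina3i, 0.46 (SE 0.26, unadjusted p = 0.082), from 112 counts in FC libraries against 95 in noFC ones. None of the 7 had an unadjusted p under 0.05 in either strain. Of all genes 0% were called by edgeR in both strains, with 670 at an unadjusted p under 0.05 in DBA/2J and 786 in C57BL/6J, and DESeq2 called 0 in DBA/2J and 2 in C57BL/6J. Over both strains together, conditioning called 0 of 7 members and 0.02% of all genes. The conditioning effects of the strains differed by 0.06 for Serpina3n (SE 0.09), in a comparison that called 0% of all genes. Serpina3g gave -0.60 for conditioning in C57BL/6J (SE 0.34) and 0.98 for the difference between strains (SE 0.44), both at adjusted p = 1.0 by edgeR.

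**Figure D3:**
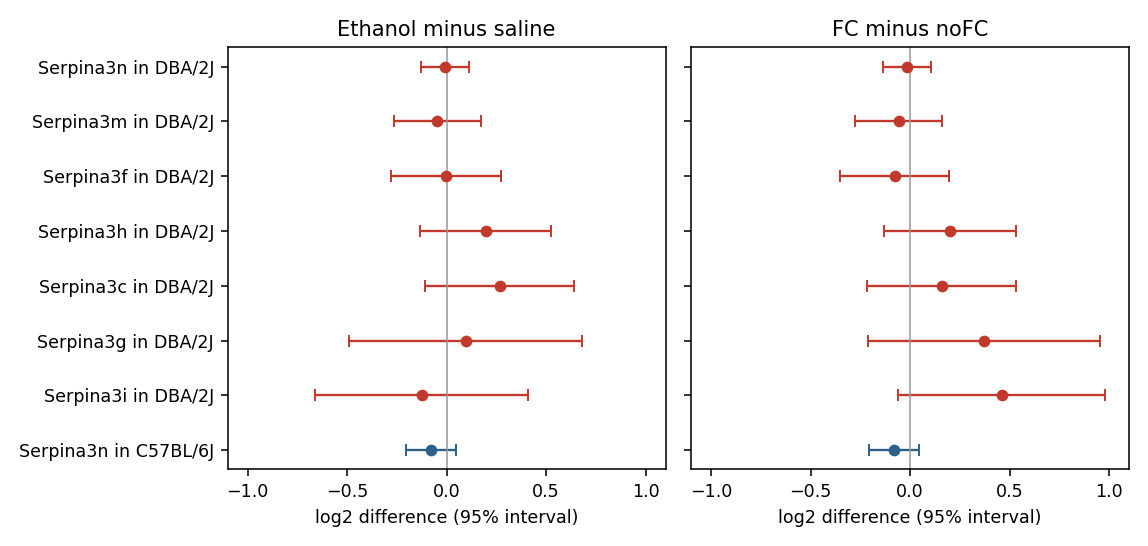
Log2 difference with its 95% interval (x axis) for each tested member in DBA/2J in red and for Serpina3n in C57BL/6J in blue (y axis), ethanol minus saline on the left and FC minus noFC on the right. Every interval drawn takes in 0. Serpina3f and Serpina3i in C57BL/6J are not drawn, and their ethanol intervals, -81.3% to -32.6% and -75.0% to -18.5%, do not take in 0. These intervals are made from the F value of the test, rest on few counts and can be too narrow.

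Drug and conditioning were also looked at in combination. Among males, Serpina3n averaged 91.2 ± 5.97 CPM with ethanol and 101 ± 7.12 CPM with saline in FC DBA/2J mice, and 107 ± 17.4 and 98.0 ± 9.43 CPM in noFC DBA/2J mice. In male C57BL/6J mice it averaged 50.1 ± 9.81 CPM with ethanol and 58.2 ± 3.99 CPM with saline after FC, and 62.7 ± 12.2 and 66.2 ± 2.01 CPM in noFC mice. Among females, Serpina3n averaged 105 ± 8.2 CPM with ethanol and 109 ± 9.75 CPM with saline in FC DBA/2J mice, and 105 ± 7.67 and 101 ± 19.0 CPM in noFC DBA/2J mice. In female C57BL/6J mice it averaged 59.6 ± 3.94 CPM with ethanol and 62.4 ± 9.85 CPM with saline after FC, and 57.9 ± 6.70 and 56.4 ± 5.59 CPM in noFC mice. Each ethanol group overlapped its saline group, in males and in females of both strains. Over both strains and sexes, the ethanol effect in FC mice less that in noFC mice was -0.16 on the log2 scale (SE 0.09, adjusted p = 1.0, edgeR). That difference did not pass the test, and 0% of all genes did.

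No member passed the test for sex. Serpina3n averaged 99.3 ± 11.4 CPM in male and 105 ± 11.2 CPM in female DBA/2J mice (SD, n = 16 each), and 59.4 ± 9.84 CPM in male and 59.1 ± 6.55 CPM in female C57BL/6J mice. Its log2 difference, male minus female over both strains, was -0.04 (SE 0.04, adjusted p = 0.95, edgeR). The smallest adjusted p of a member in that comparison was that of Serpina3m (log2 difference -0.82, SE 0.29, adjusted p = 0.75, edgeR), and 0 of 7 members and 0.2% of all genes were called. As Serpina3m is nearly silent in C57BL/6J, it was also compared within DBA/2J, a comparison added after the data were seen that called 0.115% of all genes. Males had 3.01, 3.89 and 4.94 CPM in the lowest, median and highest library, against 3.02, 4.78 and 5.18 CPM in females. The log2 difference was -0.19 (SE 0.11, adjusted p = 1.0). In C57BL/6J, where 0.185% of all genes were called, Serpina3m had 3 counts over the males and 10 over the females, a log2 difference of -1.45 (SE 0.55, adjusted p = 1.0, edgeR). The difference of sex effects between strains was 1.26 for Serpina3m (SE 0.52, adjusted p = 1.0, edgeR).

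**Figure D4:**
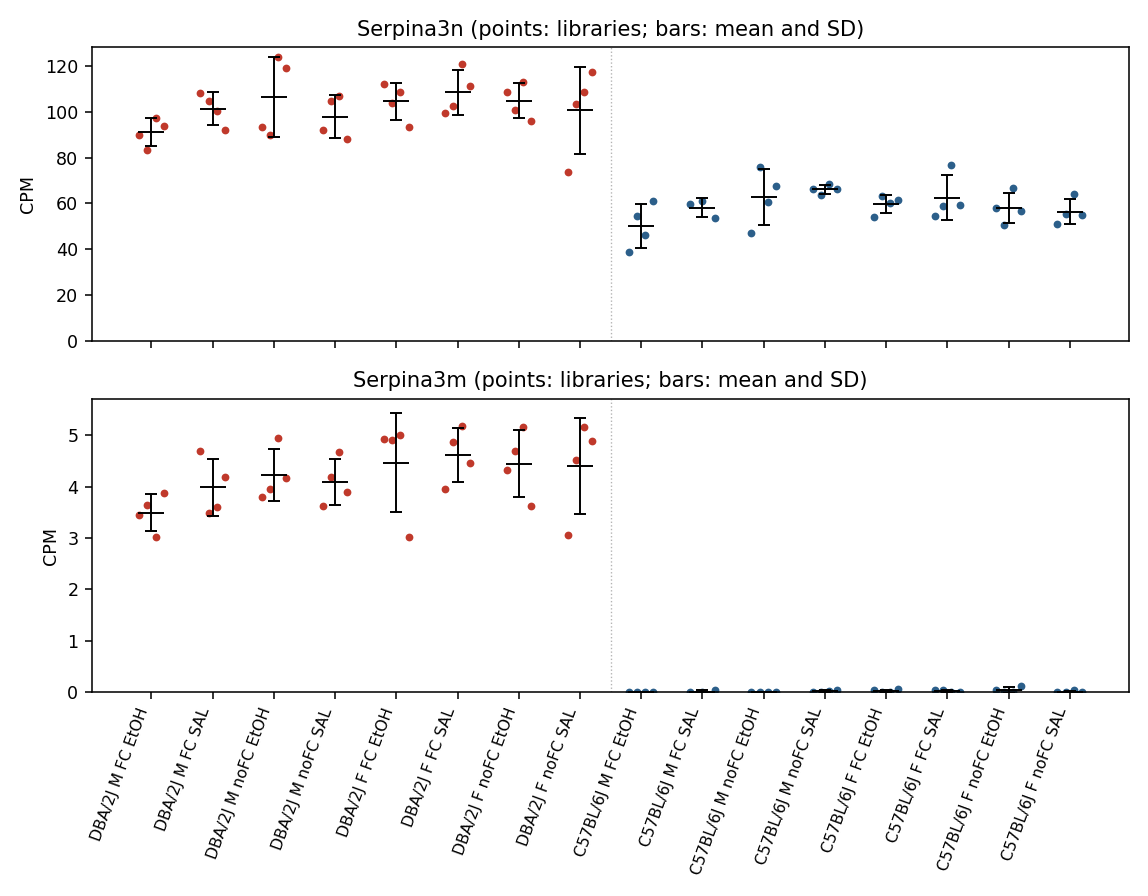
CPM of Serpina3n (upper panel) and Serpina3m (lower panel) in the 16 groups of strain, sex, conditioning and drug (x axis), with points for libraries and bars for mean and SD. DBA/2J group means of Serpina3n lie between 91.2 and 109 CPM, those of C57BL/6J between 50.1 and 66.2 CPM, and Serpina3m is near 0 in all C57BL/6J groups.

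Among the other members inside DBA/2J, Serpina3m went most closely with Serpina3n from library to library, followed by Serpina3f. After each library's group mean was subtracted, log2 CPM of Serpina3m had a Pearson r of 0.69 with that of Serpina3n over 32 libraries (Spearman rho 0.67). The r was 0.60 without the 2 libraries farthest from the median of Serpina3n, and 0.74 and 0.67 in the 2 rounds of title numbers. Serpina3f gave 0.48 (rho 0.45), Serpina3e-ps 0.34, Serpina3h 0.18, Serpina3c 0.14, Serpina3i 0.07 and Serpina3g -0.26. These are descriptions without a test, among genes of the same libraries, and the low values belong to genes with a median of 6 to 30.5 counts per library.

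Across all 63 libraries the genes most like Serpina3n in their deviations from the group mean were Galnt17 (r 0.88), Cttn (0.86), Chst1 (0.86), Ptk2b (0.86) and Camk1d (0.85). Galnt17 attaches sugars to proteins, Cttn binds actin, Chst1 sulfates glycans, and Ptk2b and Camk1d are kinases of calcium signalling. Among 19973 genes the median r with Serpina3n was -0.04, and the central 95% ran from -0.49 to 0.64. For Galnt17 the r was 0.84 in DBA/2J and 0.91 in C57BL/6J, and 0.84 without the 2 farthest libraries.

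Markers of neurons, too, varied with Serpina3n from library to library. The summed level of 8 markers of hippocampal neurons had an r of 0.73 with Serpina3n (rho 0.73), 0.74 in DBA/2J and 0.73 in C57BL/6J, 0.65 and 0.79 in the 2 rounds, and 0.69 without the 2 farthest libraries. All 8 neuron markers had a positive r, from 0.45 to 0.71. The summed level of 7 astrocyte markers had an r of -0.21, and all 7 had a negative r, from -0.33 to -0.14. Summed markers of oligodendrocytes gave -0.31, endothelium -0.36, microglia -0.03, choroid plexus -0.31, blood -0.36, and meninges and fibroblasts -0.40. Summed neuron markers had medians of 3715 CPM in DBA/2J and 3761 CPM in C57BL/6J, and astrocyte markers 5335 and 4682 CPM. Oligodendrocyte markers had medians of 10103 CPM in DBA/2J and 13294 CPM in C57BL/6J, markers of meninges and fibroblasts 252 and 455 CPM, and blood markers 195 and 101 CPM. A list of 5 liver markers, of which Serpina1b is one, had medians of 1.79 CPM in DBA/2J and 0.597 CPM in C57BL/6J and an r of -0.29 with Serpina3n, and 0 of the 5 were above 0 in every library. Serpina1b alone averaged 1.78 CPM in DBA/2J and 0.00693 CPM in C57BL/6J, so in DBA/2J the list was mostly that gene. The list therefore cannot be used to look at the strain difference of Serpina1b. Any part of liver RNA in that of the liver-made Serpina3k was not tested. The part of the makeup of the dissected tissue in the levels of Serpina3n was not tested.

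**Figure D5:**
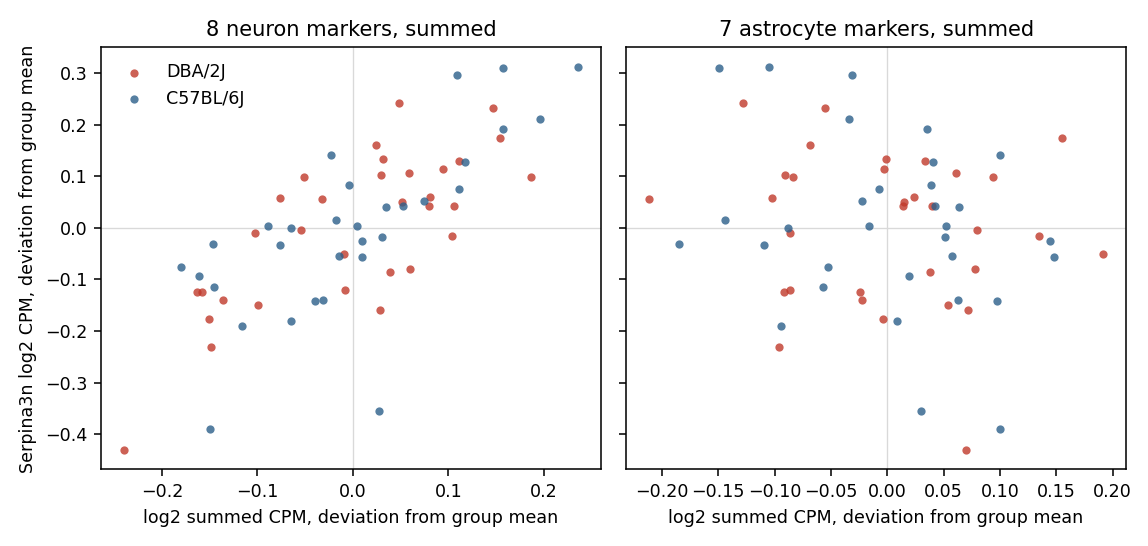
Deviation of Serpina3n log2 CPM from its group mean (y axis) against the deviation of summed neuron markers (left) or astrocyte markers (right) on the log2 scale (x axis), for DBA/2J libraries in red and C57BL/6J libraries in blue. Serpina3n goes with the neuron markers (r 0.73 over 63 libraries) and not with the astrocyte markers (r -0.21).

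Genes of reactive astrocytes are read against the whole table, in which 50% of genes were called for strain and 25.5% were called higher in DBA/2J. Of 12 pan-reactive astrocyte genes, 11 were tested for strain with edgeR, and 2 were higher and 2 lower in DBA/2J, with a median log2 difference of 0.07 against 0.01 over all genes. Aspg, an asparaginase of astrocytes, stood at 5.30 ± 1.14 CPM in DBA/2J and 2.47 ± 0.54 CPM in C57BL/6J (log2 difference 1.1, adjusted p = 3.6e-18), and Cd44, a receptor for hyaluronan, at 4.20 ± 0.97 and 2.70 ± 0.77 CPM (0.65, adjusted p = 4.9e-10). Of 11 genes of the A1 reactive state, 3 were higher, among them the adhesion gene Amigo2 (0.33, adjusted p = 2.2e-06), and 4 lower, among them Ggta1 (-0.26, adjusted p = 1.8e-05). Of the 10 tested genes of the A2 state 3 were higher, among them Cd14, and 4 lower, among them Ptgs2, the inducible cyclooxygenase, at 15.8 ± 3.04 CPM in DBA/2J and 29.6 ± 3.54 CPM in C57BL/6J (-0.91, adjusted p = 7.1e-21). In their deviations from group means, 0 of 11 pan-reactive genes, 2 of 11 A1 genes and 4 of 10 A2 genes had a positive r with Serpina3n. The median r over all genes was -0.04, and the share with a positive r was not worked out. None of the reactive astrocyte genes was called for ethanol or conditioning in either strain. Of all genes, ethanol called 0.0901% in C57BL/6J and 0.295% in DBA/2J, and conditioning 0% in each strain, so nothing is read from that. Of 7 astrocyte markers 4 were higher in DBA/2J, among them the glutamate transporter Slc1a2 (0.23, adjusted p = 9.7e-09), and 2 lower, among them the connexin Gjb6 (-0.36, adjusted p = 6.8e-12).

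Serpina3n is known to be induced by cytokines and glucocorticoids, and genes of those pathways were looked at together. Of 16 tested genes of the interleukin-6, interleukin-1, glucocorticoid and NF-kappaB pathways, 1 was higher and 6 were lower, with a median log2 difference of -0.04, where 50% of all genes were called. The interleukin-1 receptor gene Il1r1 stood at 21.2 ± 2.92 CPM in DBA/2J and 24.1 ± 2.5 CPM in C57BL/6J (-0.18, adjusted p = 0.00021, edgeR). For ethanol in DBA/2J, which called 0.295% of all genes, 1 of the 16 was called and higher, the NF-kappaB inhibitor Nfkbia (0.22, SE 0.05, adjusted p = 0.049), and its call was lost, at adjusted p up to 0.12, when any 1 of 20 of the 32 libraries was left out, and at adjusted p = 0.24 with each strain fitted alone. It was also lost with library totals (adjusted p = 0.051), without the filter (0.065) and in the second round of title numbers (0.11, adjusted p = 0.85). The ethanol effects of the strains differed for Nfkbia by 0.40 (SE 0.08, adjusted p = 0.034), in a comparison that called from 0 to 5 genes when 1 library was left out. Nfkbia was also higher in males (0.21, SE 0.04, adjusted p = 0.00096, edgeR). Its difference was 0.21 in the first round and 0.20 in the second. With the fewer libraries of each round the call was lost (adjusted p = 0.37 and 0.17, edgeR).

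Of 16 proteases listed as possible targets of serpins of this family, 9 were tested for strain. Among them 3 were higher and 3 lower in DBA/2J, where 50% of all genes were called. Whether serpins of the cluster act on them was not tested. Gzmk, a granzyme of lymphocytes, stood at 1.23 ± 0.27 CPM in DBA/2J and 0.273 ± 0.0909 CPM in C57BL/6J (log2 difference 2.17, adjusted p = 2.9e-25, edgeR), and Ctss, a cathepsin of microglia, at 69.1 ± 6.04 and 57.5 ± 6.22 CPM (0.26, adjusted p = 5.3e-09). Klk8, a kallikrein of hippocampal neurons, was lower in DBA/2J at 7.29 ± 0.99 CPM than in C57BL/6J at 13.5 ± 2.18 CPM (-0.88, adjusted p = 7.0e-20). No protease of the list was called for ethanol or conditioning in either strain, or for sex. Of all genes, ethanol called 0.0901% in C57BL/6J and 0.295% in DBA/2J, conditioning 0% in each strain and sex 0.2%. At such shares nothing is read from that. Among serpins from other chromosomes, the intracellular Serpinb6a was lower in DBA/2J, at 22.5 ± 2.33 CPM, than in C57BL/6J, at 28.1 ± 2.62 CPM (log2 difference -0.32, SE 0.03, adjusted p = 9.0e-12).

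The promoters are shown for 3 members whose levels lie far apart. Of the genes printed, Serpina3f had an r of 0.48 with Serpina3n in DBA/2J. Serpina3c, with a median of 11 counts per DBA/2J library, gave an r of 0.14. Any part of promoter sequence in the levels or in these r values was not tested. RefSeq promoter sequences on GRCm38.p6 were at hand for 5 members, and those of Serpina3n, of its closest match and of Serpina3f are printed as the 250 bases before the start. Capitals mark bases that differ from the aligned Serpina3n base or have no aligned Serpina3n base.
Serpina3n: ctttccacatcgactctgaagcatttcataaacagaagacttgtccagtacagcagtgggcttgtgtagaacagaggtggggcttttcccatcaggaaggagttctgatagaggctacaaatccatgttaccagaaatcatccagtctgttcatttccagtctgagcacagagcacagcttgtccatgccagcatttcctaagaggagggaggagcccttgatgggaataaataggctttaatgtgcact
Serpina3c: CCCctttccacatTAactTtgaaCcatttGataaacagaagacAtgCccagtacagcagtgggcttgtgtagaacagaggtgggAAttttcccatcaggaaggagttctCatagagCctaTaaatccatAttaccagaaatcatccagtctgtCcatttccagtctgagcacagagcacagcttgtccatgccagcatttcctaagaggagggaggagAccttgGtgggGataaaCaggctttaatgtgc
Serpina3f: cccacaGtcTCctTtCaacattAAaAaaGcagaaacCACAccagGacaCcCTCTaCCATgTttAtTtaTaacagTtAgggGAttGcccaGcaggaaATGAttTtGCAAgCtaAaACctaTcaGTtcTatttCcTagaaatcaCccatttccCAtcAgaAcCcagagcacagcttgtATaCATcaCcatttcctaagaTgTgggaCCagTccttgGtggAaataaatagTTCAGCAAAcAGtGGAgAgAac
The stretches lie at chr12:104406458-104406707 (Serpina3n, plus strand), chr12:104153873-104154122 (Serpina3c, minus strand) and chr12:104214294-104214543 (Serpina3f, plus strand). Serpina3c matched Serpina3n at 92.7% of 247 aligned bases, and Serpina3f matched at 70.6% of 231. Serpina3i matched Serpina3n at 77.9% of 222 aligned bases and Serpina3g at 59.5% of 205. The windows follow RefSeq starts and need not line up. That of Serpina3g ends at base 104236146, and its GENCODE start is 104236245. That of Serpina3n ends at base 104406707, and its GENCODE start is 104406729. The part of this offset in the 59.5%, and in the runs found or missed in Serpina3g, was not tested. All 5 promoters held the run AGAAATCA, which was picked from these sequences and occurs, on either strand, in 1.3% of 32536 promoters of the same length. The pattern TTCNNNGAA, the form of site that STAT factors bind, was in the promoters of Serpina3f, Serpina3g and Serpina3i, and in 7.04% of all promoters. Both strands were searched for each pattern, and the next pair can overlap each other. A TATAAA run was in Serpina3c and Serpina3f (12.3% of all promoters), and ATAAATA in Serpina3f and Serpina3n (5.19%). A match is a description of letters in the C57BL/6J reference, and the DBA/2J sequence was not used here.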

How the data were processed

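RNA sequencing was done on 63 libraries of dorsal hippocampus. The authors deposited raw gene counts (whole numbers) and, per transcript, estimated counts; the submitters' processing notes name fastp, HISAT2, featureCounts, Salmon, DESeq2 and GRCm38. Versions and the strand setting of the counting are not given in the sources used here. Gene names and positions came from GENCODE M21, which holds 55141 of 55401 identifiers. Genes were kept by filterByExpr (minimum count 10), leaving 19974. Counts were scaled by TMM and fitted with edgeR's quasi-likelihood test over the 16 groups (residual df 47), with Benjamini-Hochberg adjustment over all tested genes and a threshold of 0.05; the script was tested on simulated data. R 4.3.3, edgeR 4.0.16, limma 3.58.1 and DESeq2 1.42.0 were used. Levels are CPM on TMM-scaled totals, and log2 levels used a prior count of 2. Each SE is the size of the log2 difference divided by the square root of its test's F value, and each interval follows from it. Where a group has few or no counts, this can understate the error. The floor of 3 counts and the counting errors cover counting error only. Members and lists were chosen with earlier results of these data known. Named genes were the members, the 5 genes most like Serpina3n, the neighbouring genes and, from each list, up to 4 genes with the smallest p; of these, genes whose strain calls were fragile under the alternatives, or that are marker genes of other cell types, are not named. Alternatives were DESeq2, other scaling, no filter, gene sums of transcript estimates (rounded), a choroid plexus covariate, each round or strain alone, a replicate block and leaving out each library. A gene of the list of other serpins is not reported here.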

Additional observations from a re-analysis of the deposited data

Results flagged for a closer look

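Dixon's test was run on the 102 groups of member and condition with 4 libraries, at a critical value of 0.829, and set 6 libraries apart from the rest of their group. Chance flags about 1 in 20 groups. Serpina3m stood at 3.02 CPM in DBA_F_FC_EtOH_325, a fear-conditioned ethanol female, where the other 3 libraries lay between 4.91 and 5.0 CPM. Serpina3c stood at 0.221 CPM in DBA_F_noFC_SAL_321, against 0.369 to 0.393 CPM in the other 3. Serpina3g stood at 0.197 CPM in DBA_F_noFC_EtOH_325, against 0.413 to 0.451 CPM in the other 3. Serpina3g was also far above its group in B6_F_noFC_EtOH_315, at 1.16 CPM from 25 counts, against 0.0401 to 0.217 CPM. The last 2 rest on 1 and 2 counts where the rest of the group had none: Serpina3m at 0.0414 CPM in B6_F_noFC_SAL_319 and Serpina3f at 0.0744 CPM in B6_M_FC_EtOH_310.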

How the results depend on the processing

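In 679 counts over the 11 comparisons other than strain, 0 members were called under any alternative or with any library left out, DESeq2 included. Of 310 values of members and Serpina3e-ps under the other settings, 15 changed sign. Another 6, all strain differences of members, moved by more than the spread between libraries within groups. The remaining 289 kept their sign, and tested ones also kept their call or lack of one. Size was not weighed for tested values: Serpina3i for conditioning in DBA/2J went from 0.46 to 0.81 in the second round. With gene sums of transcript estimates the log2 strain difference was 8.48 for Serpina3m, 3.85 for Serpina3f, 2.56 for Serpina3i and 0.67 for Serpina3c, and in the first round 8.91 for Serpina3m and 5.66 for Serpina3f. The signs that turned were all of differences near 0 or from few counts. For ethanol in DBA/2J they were Serpina3f (0.00067 with library totals, 0.0236 in the second round, 0.0050 with DESeq2), Serpina3i (0.0732 with transcript sums, 0.30 in the first round), Serpina3m (0.0516, first round), Serpina3n (0.0024, second round) and Serpina3g (-0.16, second round). For conditioning in DBA/2J they were Serpina3f (0.0196, transcript sums), Serpina3m (0.0717), Serpina3n (0.0664) and Serpina3i (-0.048) in the first round, Serpina3c (-0.11, second round) and Serpina3n (0.0175, choroid plexus covariate). The difference of conditioning effects for Serpina3n was -0.0172 in the second round. Counts of genes called also moved. For sex they were 25 with transcript sums, 17 in the first and 23 in the second round. For ethanol in C57BL/6J they were 0 and 1 in the rounds. For ethanol in DBA/2J they were 33 without a filter, 27 with each strain alone, 15 in the second round, 107 with DESeq2 and 109 with the replicate block. For conditioning in C57BL/6J, 1 was called with the strain alone, 2 with the choroid plexus covariate and 2 with DESeq2. For the difference of ethanol effects between strains there were 1 with library totals, 4 with the replicate block and 0 in each round, and for that of sex effects 1 with transcript sums. Over both strains, ethanol gave 66 without a filter and 11 and 34 in the rounds, and conditioning 0 in each round and 7 with the covariate. The cause was not tested. Leaving out 1 library gave 9815 to 10136 genes for strain, 39 to 45 for sex, 13 to 20 and 42 to 85 for ethanol in C57BL/6J and DBA/2J, 0 to 4 for conditioning in C57BL/6J, 0 to 5 and 0 to 2 for the differences of ethanol and sex effects, and 92 to 134 and 4 to 5 for ethanol and conditioning over both strains. The log2 strain difference then ran from 8.02 to 8.35 for Serpina3m, 0.77 to 0.80 for Serpina3n and 0.50 to 0.74 for Serpina3g. For ethanol in DBA/2J, Serpina3n ran from -0.0355 to 0.0159, Serpina3f from -0.0341 to 0.0312 and Serpina3i from -0.25 to 0.0509, and for conditioning Serpina3n from -0.048 to 0.0047. Whether title numbers pair the libraries was not settled. In 3 of 24 pairs of groups every same-numbered pair had a correlation of deviations over 0.1, as did 45 of all 93 such pairs. The r ran from -0.68 to 0.66. Libraries of unlike number were not compared, so these values cannot decide it. With the replicate block the ethanol difference of Serpina3n was -0.01 in DBA/2J and -0.10 in C57BL/6J. The comparison of sex within each strain was chosen after seeing the data. Depth limits the members other than Serpina3n and Serpina3m, most of which had under 40 counts in a typical DBA/2J library.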
